A study of Mus musculus with 18 samples.

Results

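Transcript levels of 10 TNF superfamily ligands were followed in bone marrow-derived macrophages (BMDMs): Tnf, Ltb, Tnfsf4, Tnfsf8, Tnfsf9, Tnfsf10, Tnfsf12, Tnfsf13b, Tnfsf14 and Tnfsf15. Members were taken as the rows of the gene table whose Ensembl identifier carries one of these symbols, and all 10 were found among 50600 gene identifiers. The cells were grown from mouse bone marrow for 8 days with recombinant GM-CSF, from WT mice or from mice lacking the transcription factor IRF5 (IRF5 KO). Each genotype gave 3 groups of 3 libraries. LPS groups received 100 ng/ml LPS for 2 h after 1 h with the vehicle DMSO or with 3.5 μM defactinib, an inhibitor of the kinases FAK and PYK2, and the unstimulated cells received no LPS. The label of the unstimulated groups names DMSO while the column headers name them untreated. The series describes the libraries as biological replicates, without the number of mice behind them. The comparisons ask which ligand transcripts respond to LPS, which of those responses depend on IRF5, and whether defactinib acts on them in cells with and without IRF5.

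TNF superfamily ligands are mostly type II membrane proteins that assemble as trimers and bind receptors of the TNF receptor superfamily, which signal through TRAF adaptors or, for death domain receptors, through FADD and caspase 8. In macrophages, TLR4 signalling after LPS switches on Tnf within minutes to hours through NF-κB, and the Tnf mRNA is short-lived because of an AU-rich element. The membrane forms of several ligands, such as OX40L, CD30L and 4-1BBL, give costimulatory signals to T cells, whereas soluble TNF acts at a distance after cleavage by ADAM17.

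Libraries held 39282181 to 61949143 counted read pairs. Levels are given as CPM, a gene's read pairs relative to its library's total after TMM scaling. Fold changes come from edgeR's quasi-likelihood test with their standard error (SE), and adjusted p-values are Benjamini-Hochberg values over the 15663 genes tested. A gene was called when the adjusted p was below 0.05 and the log2 fold change was beyond 1. All 10 members passed the filter on low counts. In the IRF5 KO LPS DMSO group, replicate 3 stood apart. Its log2 CPM correlated at r = 0.932 with replicates 1 and 2 of its own group and at 0.978 to 0.979 with unstimulated IRF5 KO libraries, whereas replicates 1 and 2 correlated at 0.985 to 0.987 with the IRF5 KO libraries given defactinib. The chi-square per gene was 441 and 425 between replicate 3 and the other 2 libraries, 2.33 between replicates 1 and 2, and 3.82 to 183 within the other groups. An exchange of labels among the IRF5 KO libraries and a response that varied between cultures cannot be told apart here, and an exchange would change what the LPS and defactinib values of this genotype mean. The members' results that use this group are therefore given for all 3 libraries, without replicate 3, and with replicate 3 alone. In the last case the group is a single library, which is assumed to vary like the other groups, so its SEs and p-values hold no spread of its own. Irf5 itself was at 335 to 435 CPM in the IRF5 KO libraries and 213 to 650.3 CPM in the WT libraries. Counts over the whole gene cannot show a deletion of part of it, so this does not check the labels.

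The macrophage markers (Adgre1, Csf1r, Itgam, Cd68, Lyz2 and Mertk) were all counted in every group and summed to 9304 to 18732 CPM per library. This sum is carried by Lyz2, at 10452 CPM on average over all libraries, against 872 CPM for Csf1r. The dendritic cell list summed to 1930.3 to 2936 CPM, carried by Itgax, with Ccr7 at 117 and Zbtb46 at 57.4 CPM on average. At rest that list summed to 2364 to 2536 CPM in WT and 1930.3 to 2034 CPM in IRF5 KO. T cell markers summed to at most 3.07 CPM, B cell markers to at most 0.92 CPM and NK cell markers to at most 0.42 CPM. The mast cell and basophil list summed to 7.89 to 15.5 CPM in WT and to 42.7 to 72.4 CPM in IRF5 KO libraries, carried by Gata2 and Kit, while Fcer1a and Ms4a2 stayed at or below 0.14 CPM. The neutrophil list summed to 203 to 408 CPM in WT and to 1029 to 2631 CPM in IRF5 KO libraries, carried by Mmp8, while Elane and Mpo stayed below 0.44 CPM. The mast cell and basophil sum and the neutrophil sum move with genotype beside every comparison of WT with IRF5 KO given here. Other sums, such as that of the dendritic cell list at rest, move in some of them. The part of all these sums in those results was not tested. In such bulk samples, fewer cells of a type and less RNA per cell cannot be told apart.

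Several members lie next to each other in the genome (mm10). On chromosome 17, Ltb (chr17:35194439-35196320, plus strand) is followed after 3060 bases by Tnf (chr17:35199381-35202007, minus strand) and, 1157 bases further, by Lta. A second group on chromosome 17 holds Tnfsf9 (chr17:57105385-57107757, plus strand), Cd70 and Tnfsf14 (chr17:57189492-57194189, minus strand). Tnfsf15 (chr4:63727084-63745113) and Tnfsf8 (chr4:63831308-63861347) are 86.2 kb apart on the minus strand of chromosome 4. Tnfsf4 (chr1:161395409-161418410, plus strand), Tnfsf10 (chr3:27317028-27342427, plus strand) and Tnfsf13b (chr8:10006467-10039072, plus strand) have no other member on their chromosome. Tnfsf12 (chr11:69686250-69695849, minus strand) shares 731 exon bases, 48.3% of its exons, with the read-through gene Tnfsfm13 on the same strand, so its counts are uncertain.

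Of the 6 ligands that defactinib lowered in WT BMDMs, 4 are shown with their upstream sequence, those with the highest level after LPS among the members with a RefSeq window, as the 250 bases before the RefSeq start (GRCm38.p6), 5′ to 3′ in the direction of transcription. Capitals mark matches to the letters searched on both strands: GGGA and CC with 4 bases of any kind between them for NF-κB, AANNGAAA for an IRF core, TGANTCA for AP-1 and TATAAA for a TATA box. The windows are chr17:35202008-35202257 (minus strand) for Tnf, chr4:63745060-63745309 (minus strand) for Tnfsf15, chr4:63861285-63861534 (minus strand) for Tnfsf8 and chr3:27316827-27317076 (plus strand) for Tnfsf10.
Tnf: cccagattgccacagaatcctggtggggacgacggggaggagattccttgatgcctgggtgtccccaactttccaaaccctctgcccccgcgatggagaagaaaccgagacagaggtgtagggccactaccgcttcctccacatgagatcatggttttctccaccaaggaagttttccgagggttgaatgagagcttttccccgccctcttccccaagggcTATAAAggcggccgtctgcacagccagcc
Tnfsf15: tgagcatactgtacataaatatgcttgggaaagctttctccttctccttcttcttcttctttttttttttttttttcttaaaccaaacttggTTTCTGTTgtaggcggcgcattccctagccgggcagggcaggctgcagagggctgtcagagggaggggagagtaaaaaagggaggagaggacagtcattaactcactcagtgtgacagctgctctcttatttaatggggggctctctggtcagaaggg
Tnfsf8: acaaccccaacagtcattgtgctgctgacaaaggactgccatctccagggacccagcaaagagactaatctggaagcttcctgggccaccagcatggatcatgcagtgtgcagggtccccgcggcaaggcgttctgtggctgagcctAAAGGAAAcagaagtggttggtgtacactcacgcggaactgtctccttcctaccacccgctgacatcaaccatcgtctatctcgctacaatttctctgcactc
Tnfsf10: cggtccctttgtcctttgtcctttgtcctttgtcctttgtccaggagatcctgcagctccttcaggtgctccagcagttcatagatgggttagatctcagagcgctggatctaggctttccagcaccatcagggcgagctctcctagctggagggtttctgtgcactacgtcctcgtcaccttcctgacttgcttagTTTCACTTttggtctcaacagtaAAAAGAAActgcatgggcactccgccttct

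RefSeq windows of 300 bases, from 250 before to 50 after the start, were at hand for 7 of the 10 members, with 2 for Tnfsf13b; Tnfsf4, Tnfsf9 and Tnfsf12 had none. Upstream of Tnf the capitals are a TATA box 29 bases before the start, and a GGGACTAGCC match to the NF-κB letters begins 29 bases past the start. The capitals upstream of Tnfsf15, Tnfsf8 and Tnfsf10 are IRF core letters, once in the Tnfsf15 and Tnfsf8 windows and at 2 places upstream of Tnfsf10. Ltb and Tnfsf14 held NF-κB letters, Tnfsf14 and Tnfsf13b AP-1 letters, and Tnfsf13b IRF core letters. Among 32851 mouse promoter windows of the same length, 20.7% held the NF-κB letters, 23.9% the IRF core, 7.81% the AP-1 letters and 13.6% the TATA box. Such short matches are descriptions of the sequence and say nothing of binding.

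Per kilobase of exon, Tnf was the most abundant of the 10 ligand transcripts in each of the 6 groups, and LPS changed the rest of the order. In unstimulated WT BMDMs, Tnf was at 65.4 ± 13.7 CPM per kb (SD, n = 3), followed by Tnfsf8 at 44.7 ± 6.93, Tnfsf4 at 28.9 ± 1.30, Tnfsf12 at 27.3 ± 2.66 and Tnfsf15 at 24.9 ± 2.98 CPM per kb. The last 3 of these overlapped with their neighbours in the order. After LPS with DMSO in WT, Tnf was at 1427.5 ± 148 and Tnfsf15 at 991 ± 35.3 CPM per kb, with no overlap, so that these 2 transcripts made up 50.4% and 35.0% of the summed level. With defactinib, the WT pool was 78.6% Tnf, and Tnfsf4, Tnfsf9, Tnfsf15 and Tnfsf12 followed at 38.4 to 25.2 CPM per kb, each overlapping with the one above it except Tnfsf4. In IRF5 KO BMDMs, Tnf made up 28.8% of the pool at rest and 88.8% after LPS with defactinib, where Tnfsf9 was next at 145 ± 9.94 CPM per kb. After LPS with DMSO the order in IRF5 KO depended on the library. In replicates 1 and 2, Tnf made up 86.9% of the pool in each, Tnfsf9 was second at 143 and 142 CPM per kb, and Tnfsf15 came after Tnfsf4, at 25.6 and 25.3 CPM per kb. In replicate 3, Tnf made up 64.0%, and Tnfsf15 was second at 217 CPM per kb, ahead of Tnfsf4 at 80.5, Tnfsf8 at 47.4 and Tnfsf9 at 18.2 CPM per kb. The share of Tnfsf15 was 1.46%, 1.44% and 19.97% in these libraries and 33.1% to 36.1% in the WT libraries of the same state.

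**Figure D1:**
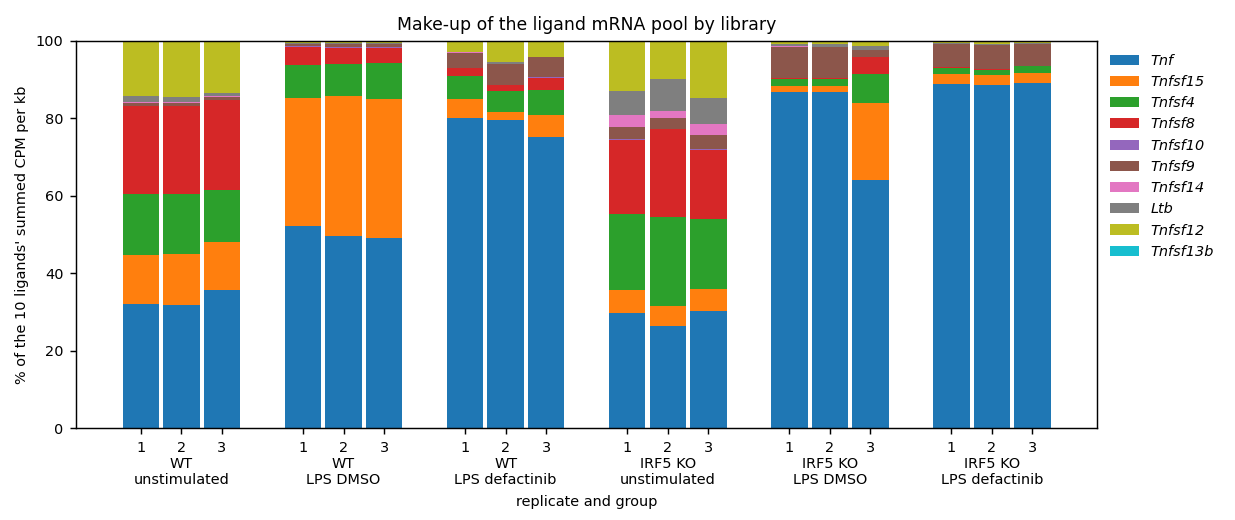
Each stacked bar is 1 of the 18 libraries, by group and replicate, and gives every ligand's CPM per kb as a percentage of the sum over the 10 ligands. Tnfsf15 holds 33.1% to 36.1% after LPS with DMSO in WT and 1.46%, 1.44% and 19.97% in replicates 1, 2 and 3 of IRF5 KO, and Tnf holds the largest share in each library.

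LPS raised 5 of the 10 ligands in WT BMDMs and lowered none. Across all genes tested in this comparison, 11.6% were called higher and 9.71% lower. The 5 were Tnf, the T cell costimulators Tnfsf15 (TL1A), Tnfsf4 (OX40L) and Tnfsf9 (4-1BBL), and the death receptor ligand Tnfsf10 (TRAIL). The median log2 fold change was 2.27 over the members and 0.00 over all genes. Ltb, Tnfsf8, Tnfsf12 (TWEAK), Tnfsf13b (BAFF) and Tnfsf14 were not called. The dendritic cell list summed to 2818 to 2936 CPM after LPS against 2364 to 2536 CPM at rest. The neutrophil list summed to 235 to 288 CPM against 203 to 230 CPM, and the macrophage list to 9304 to 9821 CPM against 9684 to 10008 CPM. The part of these shifts was not tested. The plot of CPM by library shows all 18 values for each ligand.

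**Figure D2:**
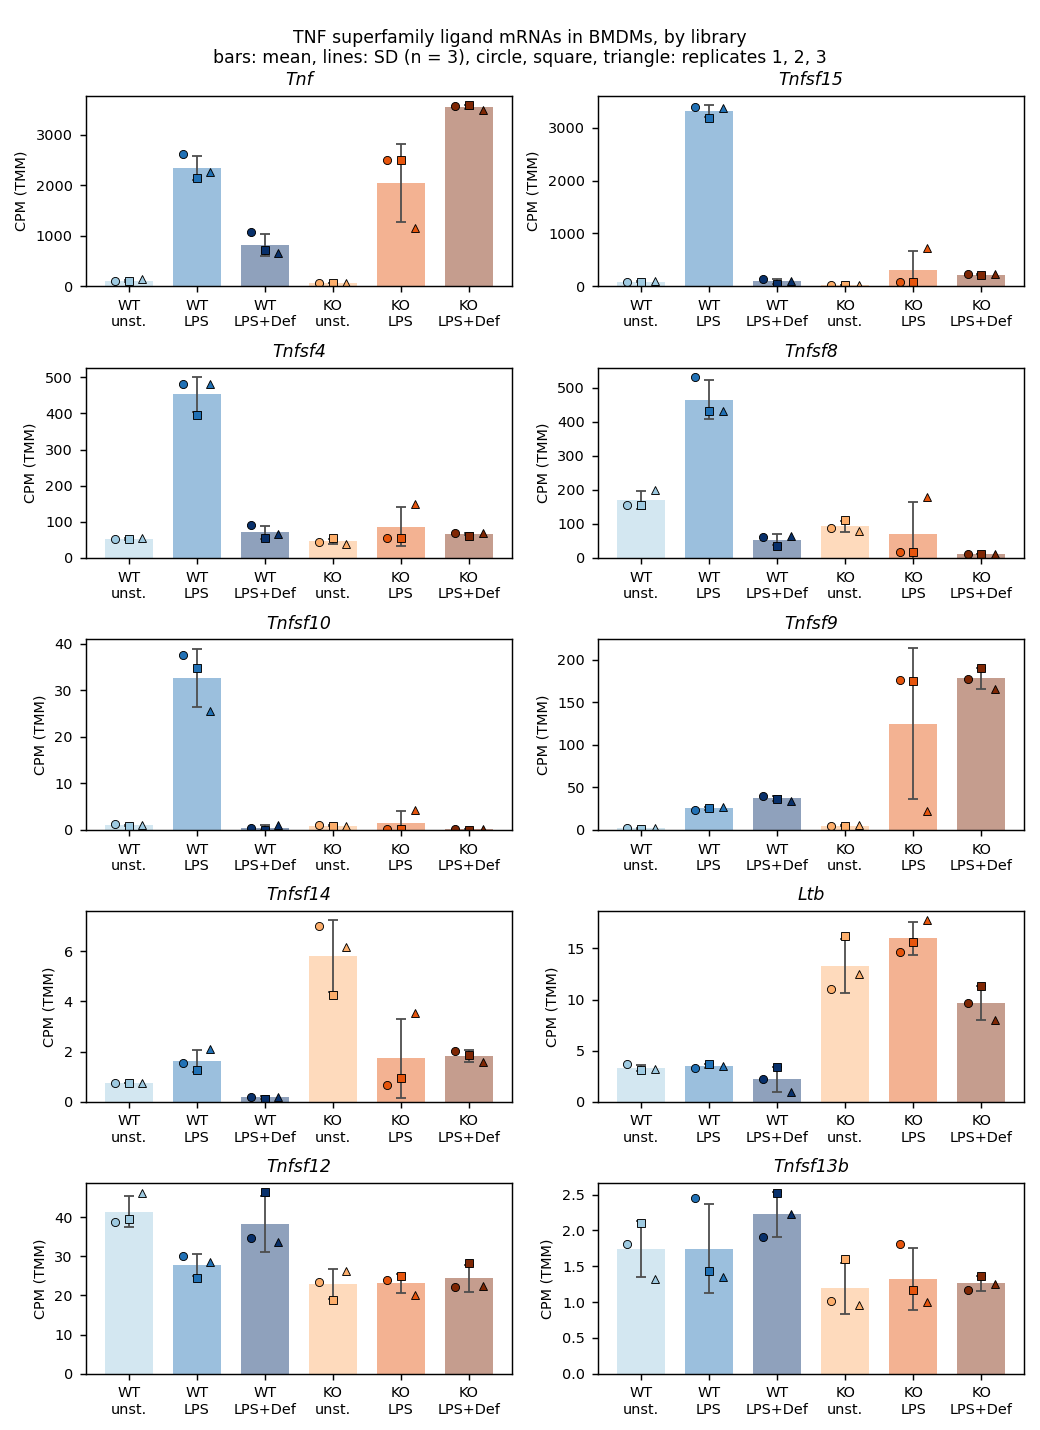
Each panel gives 1 ligand, with CPM after TMM scaling on a linear axis from 0, bars for the mean of 3 libraries, lines for the SD and a circle, square or triangle for replicates 1, 2 and 3. Tnfsf15, Tnfsf4, Tnfsf8 and Tnfsf10 are highest in WT BMDMs after LPS with DMSO, and in the IRF5 KO LPS DMSO group the triangle lies apart from the other symbols in the panels of these 4 ligands and of Tnf, Tnfsf9 and Tnfsf14.

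Tnf, the prototype pro-inflammatory ligand, was at 94.1, 94.5 and 133 CPM in the unstimulated WT libraries and at 2611, 2143 and 2265 CPM after LPS. It rose 21.8-fold (log2 fold change 4.45 ± 0.28, adjusted p = 1.29e-08). Tnfsf15, which binds the death domain receptor encoded by Tnfrsf25 on lymphocytes, was at 76.3, 79.2 and 94.9 CPM at rest and at 3389.7, 3181 and 3380.1 CPM after LPS. Every stimulated library lay far above every resting library, and Tnfsf15 rose 39.7-fold (5.31 ± 0.75, adjusted p = 4.31e-05), the largest fold change among the members.

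Tnfsf4, the ligand of OX40 on activated T cells, went from 52.4, 51.5 and 56.0 CPM to 482, 396 and 481 CPM, an 8.50-fold rise (3.09 ± 0.31, adjusted p = 1.82e-06). Tnfsf9 was near the bottom of the range at rest, with 1.76, 1.57 and 1.86 CPM, and reached 22.98, 25.9 and 26.9 CPM (14.6-fold, 3.87 ± 0.52, adjusted p = 2.97e-05). Tnfsf10 rose 32.9-fold (5.04 ± 1.05, adjusted p = 0.00118), from 62, 51 and 46 counts to 1622, 1356 and 1007 counts. These 3 transcripts showed no overlap between resting and stimulated libraries. The share of all genes without such overlap was not counted for LPS in WT, and between the genotypes at rest it was 51.4%.

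For a pair of ligands, separation of the libraries was not matched by a call in the edgeR test over all groups. Tnfsf8, which encodes CD30L, was at 155, 156 and 201 CPM at rest and at 532, 433 and 431 CPM after LPS, and its log2 fold change of 1.45 ± 0.65 had an adjusted p of 0.0865. Tnfsf14, which encodes LIGHT, a ligand of HVEM and the lymphotoxin β receptor, was at 0.73, 0.744 and 0.763 CPM and then at 1.55, 1.25 and 2.11 CPM (1.13 ± 0.46, adjusted p = 0.0619). The fit shares its estimate of spread with the IRF5 KO LPS DMSO group, in which both genes are spread widely. Without replicate 3 of that group, the adjusted p was 7.16e-06 for Tnfsf8 and 0.00119 for Tnfsf14, at nearly the same fold changes, and without replicate 1 or replicate 2 it was 0.0264 to 0.0469. Both were also called with only the groups compared (adjusted p = 1.12e-05 and 0.0021), and DESeq2 over all groups called Tnfsf14 (1.17, adjusted p = 0.0357).

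Ltb, whose product anchors lymphotoxin α at the membrane, was at 3.15 to 3.67 CPM at rest and 3.34 to 3.74 CPM after LPS. Tnfsf13b, a survival factor for B cells, lay between 1.32 and 2.46 CPM in both states. Tnfsf12 was lower after LPS in each library, at 24.5 to 30.03 CPM against 38.7 to 46.1 CPM. This difference (-0.58 ± 0.16 on the log2 scale, adjusted p = 0.00698) was short of the fold threshold. At an unadjusted p below 0.05, 1 member was lower, and DESeq2 called 0 lower.

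Defactinib before LPS lowered 6 of the 10 ligands in WT BMDMs and raised none, where 18.6% of all genes tested were called lower and 10.4% higher. The 6 were Tnf, Tnfsf4, Tnfsf8, Tnfsf10, Tnfsf14 and Tnfsf15, and they ranged from a 2.86-fold to a 68.2-fold decrease. The median log2 fold change was -2.10 over the members and 0.09 over all genes. Macrophage marker sums in these libraries were 10560.1 to 15021 CPM with defactinib and 9304 to 9821 CPM with DMSO. The sums are carried by Lyz2 and do not show how the other markers moved, and their part in the result was not tested.

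Tnf was at 1067, 723 and 664 CPM with defactinib, 35.0% of the mean after LPS with DMSO (log2 fold change -1.52 ± 0.25, adjusted p = 1.06e-04). These libraries remained above the unstimulated range of 94.1 to 133 CPM. Tnfsf15 was at 131, 34.7 and 101 CPM with defactinib, 2.68% of the DMSO mean (-5.22 ± 0.74, adjusted p = 3.93e-05). Unlike Tnf, Tnfsf15 in these libraries overlapped with the unstimulated range of 76.3 to 94.9 CPM.

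Tnfsf4 was at 90.6, 55.7 and 65.8 CPM with defactinib, 15.6% of the DMSO mean (-2.68 ± 0.31, adjusted p = 5.31e-06), again overlapping with the unstimulated libraries. Tnfsf8 was at 61.0, 35.0 and 64.6 CPM (-3.12 ± 0.69, adjusted p = 0.0014). Here all 3 libraries lay below the unstimulated range of 155 to 201 CPM, and the mean was 31.4% of the resting mean. Tnfsf14, at 0.209, 0.0962 and 0.206 CPM or 9, 4 and 8 counts, was likewise below all resting libraries (-3.25 ± 0.56, adjusted p = 1.67e-04 against LPS with DMSO).

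Tnfsf10 had the largest decrease, with 19, 0 and 39 counts after defactinib against 1007 to 1622 counts with DMSO (-6.09 ± 1.13, adjusted p = 3.76e-04). The count of 0 in replicate 2 allows up to 0.0722 CPM (3 counts). The ligand transcripts that were not called included Tnfsf9, which was higher with defactinib in each library, at 40.2, 36.8 and 34.3 CPM against 22.98 to 26.9 CPM (0.56 ± 0.45, adjusted p = 0.305). Tnfsf12 was also higher in each library, at 33.5 to 46.3 CPM (0.46 ± 0.16, adjusted p = 0.0198), short of the fold threshold, and DESeq2 called 0 ligands higher. Ltb was at 2.19, 3.42 and 0.976 CPM (-0.68 ± 0.30, adjusted p = 0.0619) and was called without replicate 2 of this group (-1.15, adjusted p = 0.00292). Tnfsf13b was at 1.91 to 2.53 CPM (0.35 ± 0.30, adjusted p = 0.327).

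**Figure D3:**
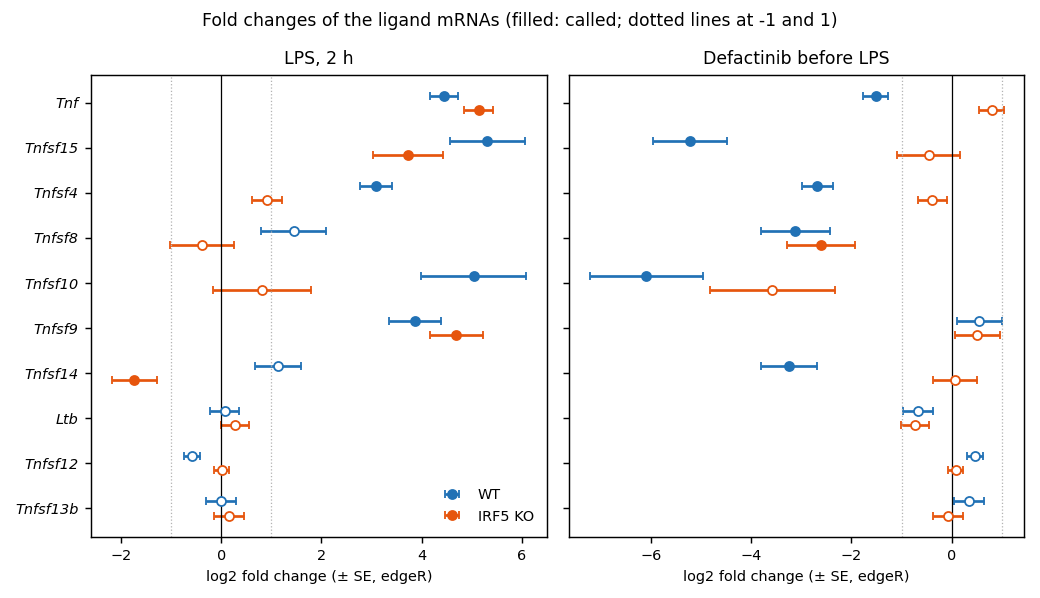
Points give the log2 fold change of each ligand from edgeR with its SE, for LPS against unstimulated on the left and defactinib against DMSO, both with LPS, on the right, in WT (blue) and IRF5 KO (orange). Filled points passed the adjusted p and fold thresholds; on the right, 6 WT points are filled, from -1.52 for Tnf to -6.09 for Tnfsf10, and Tnfsf8 is the filled IRF5 KO point.

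In IRF5 KO BMDMs, LPS raised Tnf, Tnfsf9 and Tnfsf15 and lowered Tnfsf14, so 3 of the 10 members were called higher, where 7.07% of all genes were, and 1 lower, where 6.28% were. Tnf went from 58.3, 55.9 and 59.4 CPM to 2491, 2495 and 1141 CPM (log2 fold change 5.14 ± 0.29, adjusted p = 2.48e-08). Tnfsf9 went from 4.58, 4.5 and 5.35 CPM to 176, 175 and 22.4 CPM (4.69 ± 0.53, adjusted p = 5.33e-05). Both rose in each library, with replicate 3 the lowest of the stimulated ones.

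Tnfsf15 showed the opposite order of libraries, with 85.6, 84.6 and 727 CPM after LPS against 22.1 to 23.5 CPM at rest (3.72 ± 0.70, adjusted p = 0.00219). Tnfsf4 likewise was at 55.7, 56.4 and 148 CPM after LPS and 39.8 to 54.8 CPM at rest (0.91 ± 0.29, adjusted p = 0.0257, short of the fold threshold), and was called without replicate 1 (1.17, adjusted p = 0.0161) or replicate 2 (1.16, adjusted p = 0.0168) of the DMSO group or replicate 2 of the unstimulated group (1.06, adjusted p = 0.0376). Tnfsf8 was at 16.1, 16.8 and 180.3 CPM against 80.6 to 110.5 CPM at rest, so that replicates 1 and 2 lay below the resting libraries and replicate 3 above them. The Tnfsf10 counts of 6, 4 and 221 were split in the same way around the resting 42 to 63 counts. Tnfsf14 was at 0.679, 0.954 and 3.54 CPM, below the resting 4.23 to 6.997 CPM in each library (-1.73 ± 0.44, adjusted p = 0.00943).

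Without replicate 3, 6 members were called in this comparison, where 26.2% of genes were. Tnf (5.43), Tnfsf9 (5.19) and Tnfsf15 (1.91) were higher after LPS on the log2 scale, and Tnfsf8 (-2.49), Tnfsf10 (-2.80) and Tnfsf14 (-2.83) were lower. With replicate 3 alone, 4 members were called, where 2.71% of genes were, all of them higher: Tnf (4.32), Tnfsf4 (1.70), Tnfsf9 (2.24) and Tnfsf15 (5.02). The rises of Tnf, Tnfsf9 and Tnfsf15 were thus called with each choice of libraries, the last resting on 1 stimulated library, whereas the decreases of Tnfsf8 and Tnfsf10 were called only without replicate 3 and that of Tnfsf14 was not called with replicate 3 alone (-0.70, adjusted p = 0.274). With only this pair of groups in the fit, Tnf alone was called, and the adjusted p was 0.0577 for Tnfsf9, 0.10 for Tnfsf15 and 0.136 for Tnfsf14.

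**Figure D4:**
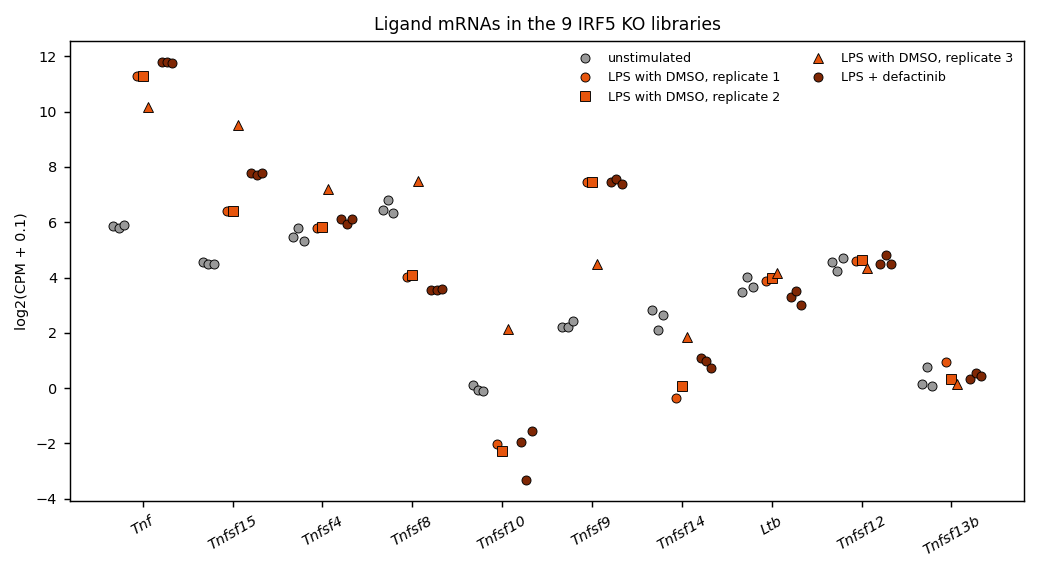
The vertical axis gives log2(CPM + 0.1) of each ligand in the 9 IRF5 KO libraries: unstimulated (grey), LPS with DMSO (orange, with a shape for each replicate) and LPS with defactinib (brown). In Tnfsf8, Tnfsf9 and Tnfsf10 the circle and square of LPS with DMSO lie next to the defactinib libraries while the triangle, replicate 3, lies apart from them.

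Defactinib in LPS-stimulated IRF5 KO BMDMs gave 1 called ligand, Tnfsf8, which was lower, where 0.76% of all genes were called lower and 0.16% higher. No ligand was called higher, by DESeq2 either, and 1 was higher at an unadjusted p below 0.05. Tnfsf8 was at 11.6, 11.6 and 11.8 CPM with defactinib (-2.61 ± 0.68, adjusted p = 0.0499), and this call was lost in most alternatives. Without replicate 3 of the DMSO group the log2 fold change was -0.49 (adjusted p = 0.178), and with the replicate number as a block it was -2.24 (adjusted p = 0.0903). Tnf was at 3563, 3583 and 3494 CPM with defactinib, above each of the DMSO libraries (0.80 ± 0.24, adjusted p = 0.075). Tnfsf15, at 221, 211 and 221 CPM, and Tnfsf4, at 68.5, 61.8 and 68.8 CPM, were inside the wide range of the DMSO group, and Tnfsf9, at 178, 190.2 and 166 CPM, overlapped with its upper end. Tnfsf14 was at 2.04, 1.86 and 1.57 CPM and Tnfsf10 at 9, 0 and 9 counts, where the count of 0 allows up to 0.0672 CPM. Ltb was at 9.67, 11.3 and 8.02 CPM, below the 14.6 to 17.7 CPM of the DMSO libraries (-0.73 ± 0.28, adjusted p = 0.138). Tnfsf12 and Tnfsf13b stayed at 18.9 to 28.3 CPM and 0.964 to 1.82 CPM over the 9 IRF5 KO libraries and were not called with LPS or with defactinib. The defactinib libraries of this genotype held 17779 to 18732 CPM of macrophage markers, a sum carried by Lyz2, against 9497 to 12155 CPM with DMSO. They held 2451 to 2631 CPM of neutrophil markers, a sum carried by Mmp8, against 1054 to 1628 CPM. The part of these shifts was not tested.

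Which DMSO libraries were used decided most of this comparison. Without replicate 3, 2 members were called, where 1.45% of genes were: Tnfsf14 (1.17 ± 0.30, adjusted p = 0.0236) and Tnfsf15 (1.35 ± 0.37, adjusted p = 0.0425), both higher with defactinib. With replicate 3 alone, 6 members were called, where 19.2% of genes were. Tnf (1.62) and Tnfsf9 (2.97) were then higher with defactinib on the log2 scale, and Tnfsf4 (-1.18), Tnfsf8 (-3.96), Tnfsf10 (-5.05) and Tnfsf15 (-1.76) were lower. Without replicate 1 or without replicate 2, Tnfsf8 and Tnfsf10 were called lower. Tnfsf15 therefore changed direction with the choice of libraries, and no ligand was called lower in IRF5 KO BMDMs with all 3 choices.

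At rest, 2 of the 10 ligands were lower in WT than in IRF5 KO BMDMs, where 3.51% of all genes were called lower, and 0 were called higher, where 3.8% were; 3 were higher at an unadjusted p below 0.05, and DESeq2 called 0, and 1 with its outlier filter off. Ltb was at 3.15 to 3.67 CPM in WT and at 11.1, 16.2 and 12.5 CPM in IRF5 KO (log2 WT over IRF5 KO -1.99 ± 0.29, adjusted p = 1.96e-04). Tnfsf14 was at 0.73 to 0.763 CPM in WT and at 6.997, 4.23 and 6.18 CPM in IRF5 KO (-2.96 ± 0.47, adjusted p = 4.20e-04). The genotypes also did not overlap for 5 ligands that were not called, so 7 of the 10 members did not overlap, where 51.4% of all genes tested did not. Of these, Tnf (0.89 ± 0.24, adjusted p = 0.0203), Tnfsf8 (0.88 ± 0.64, adjusted p = 0.447), Tnfsf12 (0.86 ± 0.16, adjusted p = 0.00132) and Tnfsf15 (1.88 ± 0.65, adjusted p = 0.0648) were higher in WT in every library, and Tnfsf9 (-1.48 ± 0.50, adjusted p = 0.0607) was lower. Without replicate 3 of the IRF5 KO LPS DMSO group, which enters the shared estimate of spread, the adjusted p was 0.000921 for Tnfsf15 and 3.33e-08 for Tnfsf9. For Tnfsf15 it was also below 0.05 without replicate 1 (0.0339) or replicate 2 (0.034) of that group or replicate 2 of the WT defactinib group (0.0461). Tnfsf9 was also called lower in WT by DESeq2 (-1.47, adjusted p = 0.00914) and with library size alone as the scaling (-1.59, adjusted p = 0.0288), and both ligands were called with only the groups compared (adjusted p = 1.48e-05 for Tnfsf9 and 8.05e-08 for Tnfsf15).

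After LPS with DMSO, Tnfsf4, Tnfsf8, Tnfsf10 and Tnfsf15 were higher in WT than in IRF5 KO BMDMs and Ltb and Tnfsf9 were lower, so 4 members were called higher, where 14% of all genes were, and 2 lower, where 11.8% were. Tnfsf15 differed 11.1-fold (3.47 ± 0.69, adjusted p = 7.72e-04), Tnfsf10 20.7-fold (4.37 ± 1.01, adjusted p = 0.00235), Tnfsf8 6.54-fold (2.71 ± 0.68, adjusted p = 0.00399) and Tnfsf4 5.21-fold (2.38 ± 0.31, adjusted p = 1.94e-05). All 3 WT libraries lay above all 3 IRF5 KO libraries for these 4 ligands, replicate 3 included; with Ltb, 5 of the 10 members did not overlap, where 50.9% of all genes tested did not. Tnf was at 2143 to 2611 CPM in WT and 1141 to 2495 CPM in IRF5 KO (0.20 ± 0.24, adjusted p = 0.51). Ltb was lower in WT (-2.18 ± 0.30, adjusted p = 2.66e-05), as it was at rest. Tnfsf9 was called lower in WT (-2.30 ± 0.47, adjusted p = 0.001) although replicate 3 of IRF5 KO, at 22.4 CPM, was below the WT libraries.

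Without replicate 3, 7 members were called between the stimulated genotypes, where 34.5% of genes were. The log2 differences were then 5.28 for Tnfsf15, 7.98 for Tnfsf10, 4.82 for Tnfsf8 and 3.01 for Tnfsf4, with Tnfsf14 also higher in WT (1.01) and Ltb (-2.10) and Tnfsf9 (-2.80) lower. With replicate 3 alone, 7 members were called, where 16% of genes were: Tnfsf15 (2.17), Tnfsf10 (2.90), Tnfsf8 (1.35), Tnfsf4 (1.59) and Tnf (1.02) higher in WT, and Ltb (-2.35) and Tnfsf14 (-1.13) lower. Tnfsf9 was not called there (0.15 ± 0.13, adjusted p = 0.414). The calls for Tnfsf4, Tnfsf8, Tnfsf10, Tnfsf15 and Ltb were thus made with each choice of IRF5 KO libraries. With only this pair of groups in the fit, the adjusted p of Tnfsf8 was 0.0851.

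After LPS with defactinib, 1 member was higher in WT than in IRF5 KO BMDMs, where 8.45% of all genes were called higher, and 4 were lower, where 8.87% were. Tnf was at 664 to 1067 CPM in WT and 3494 to 3583 CPM in IRF5 KO (-2.12 ± 0.25, adjusted p = 9.17e-06). Tnfsf9 was at 34.3 to 40.2 CPM in WT and 166 to 190.2 CPM in IRF5 KO (-2.26 ± 0.47, adjusted p = 0.00153). Tnfsf14 (-3.40 ± 0.55, adjusted p = 1.80e-04) and Ltb (-2.14 ± 0.30, adjusted p = 4.45e-05) were also lower in WT. Tnfsf8 was the ligand higher in WT, at 35.0 to 64.6 CPM against 11.6 to 11.8 CPM (2.20 ± 0.67, adjusted p = 0.0187), and this call was lost when any 1 of the IRF5 KO defactinib libraries was left out (adjusted p = 0.0544 to 0.0562) and with no filter on low counts (0.0649). Tnfsf12 (0.65 ± 0.16, adjusted p = 0.00415) and Tnfsf13b (0.82 ± 0.30, adjusted p = 0.0424) were higher in each WT library but short of the fold threshold. Tnfsf4 overlapped between genotypes in this state (0.09 ± 0.29, adjusted p = 0.835), and Tnfsf15 was lower in each WT library (-1.29 ± 0.63, adjusted p = 0.125), with an adjusted p of 0.00449 without replicate 3 of the IRF5 KO LPS DMSO group.

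The LPS response itself differed between genotypes for Tnfsf4 (difference of log2 fold changes, WT minus IRF5 KO, 2.17 ± 0.42, adjusted p = 0.00312), Tnfsf10 (4.22 ± 1.37, adjusted p = 0.0459) and Tnfsf14 (2.87 ± 0.64, adjusted p = 0.0075). These are 3 of the 10 members, where 9.83% of all genes were called in either direction. The other members included Tnf, for which the difference was -0.69 ± 0.34 (adjusted p = 0.169), and Tnfsf15, for which it was 1.59 ± 0.89 (adjusted p = 0.223). Without replicate 3, 6 members were called, where 23.6% of genes were: Tnfsf4 (2.80), Tnfsf8 (3.94), Tnfsf9 (-1.32), Tnfsf10 (7.84), Tnfsf14 (3.96) and Tnfsf15 (3.40). With replicate 3 alone, 3 were called, where 6.48% of genes were: Tnfsf4 (1.38), Tnfsf9 (1.63) and Tnfsf14 (1.82). Tnfsf4 and Tnfsf14 were called with each choice, Tnfsf9 changed direction, and the call for Tnfsf10 was lost in most alternatives, at an adjusted p of up to 0.132.

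The effect of defactinib differed between genotypes for 4 of the 10 members, where 22.8% of all genes were called in either direction. The differences of log2 fold changes, WT minus IRF5 KO, were -2.31 ± 0.34 for Tnf (adjusted p = 1.00e-04), -4.76 ± 0.93 for Tnfsf15 (adjusted p = 0.00104), -2.29 ± 0.42 for Tnfsf4 (adjusted p = 5.87e-04) and -3.31 ± 0.72 for Tnfsf14 (adjusted p = 0.002). Each of these transcripts was lowered by defactinib in WT and, against all 3 DMSO libraries, not called in IRF5 KO BMDMs, where the calls without replicate 3 and with replicate 3 alone are those given above. For Tnfsf8 the difference was -0.51 ± 0.91 (adjusted p = 0.687) and for Tnfsf10 -2.51 ± 1.80 (adjusted p = 0.291). Without replicate 3, 6 members were called, where 31.6% of genes were: Tnf (-2.03), Tnfsf4 (-2.92), Tnfsf8 (-2.63), Tnfsf10 (-6.13), Tnfsf14 (-4.42) and Tnfsf15 (-6.58). Using replicate 3 alone, 5 were called, where 19.1% of genes were: Tnf (-3.12), Tnfsf4 (-1.49), Tnfsf9 (-2.40), Tnfsf14 (-2.26) and Tnfsf15 (-3.46). The calls for Tnf, Tnfsf4, Tnfsf14 and Tnfsf15 were made with each choice of libraries, replicate 3 alone being a group of 1.

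Of 8 further ligands of the superfamily, Cd40lg, Tnfsf11 and Eda had too few counts to be tested. Lta, which neighbours Tnf and encodes lymphotoxin α, was at 10.6 to 12.9 CPM at rest in WT, 54.6 to 60.4 CPM after LPS and 13.5 to 14.3 CPM with defactinib, and both changes were called (2.35 ± 0.26 and -2.07 ± 0.26). Cd70, which lies between Tnfsf9 and Tnfsf14, had the same order of groups (5.26 ± 0.75 and -3.73 ± 0.69), as did Tnfsf18, the ligand of GITR (3.52 ± 0.51 and -3.15 ± 0.50). So 3 of the 5 tested further ligands rose with LPS in WT, where 11.6% of all genes did, and 3 fell with defactinib, where 18.6% did. Fasl, the ligand of the death receptor Fas, went the other way, at 0, 0 and 0.0254 CPM (0, 0 and 1 counts) after LPS with DMSO and 5.33, 3.66 and 4.44 CPM (229, 152 and 173 counts) with defactinib in WT. The counts of 0 allow up to 0.0696 and 0.0767 CPM. Fasl was the 1 further ligand called higher with defactinib in WT (adjusted p = 0.000307), where 10.4% of all genes were, and no fold is given against so few counts. In IRF5 KO BMDMs, Fasl was at 3.54, 3.50 and 0.0196 CPM after LPS with DMSO, again with replicate 3 apart, and at 1.71 to 1.99 CPM with defactinib. The rise of Fasl with LPS in IRF5 KO was called without replicate 3 and not with replicate 3 alone. Tnfsf13, which encodes APRIL and neighbours Tnfsf12, was at 4.14 CPM after LPS with DMSO and at 5.55 CPM with defactinib on average in WT (0.42 ± 0.25, adjusted p = 0.154).

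Among 15 tested receptors of the superfamily, LPS raised 4 in WT BMDMs, and 0 were called lower (4 at an unadjusted p below 0.05, and 1 by DESeq2), where 11.6% of all genes were called higher and 9.71% lower. They were Tnfrsf1b, which encodes TNFR2 (1.43 ± 0.27), Tnfrsf8, the receptor for the Tnfsf8 product (2.62 ± 0.53), the decoy receptor Tnfrsf11b (3.86 ± 0.34) and Tnfrsf13b (1.04 ± 0.15), a receptor for BAFF and APRIL. Defactinib lowered 7 and raised 2, where 18.6% of all genes were lowered and 10.4% raised. The 7 were these 4, at -2.21 ± 0.28, -2.30 ± 0.53, -3.46 ± 0.34 and -1.23 ± 0.15 in the same order, together with Tnfrsf1a, which encodes TNFR1 (-1.86 ± 0.45), Tnfrsf12a, the TWEAK receptor (-2.43 ± 0.51), and Tnfrsf13c, the BAFF receptor (-3.01 ± 0.92). The 2 that rose were the decoy receptors Tnfrsf22 (1.27 ± 0.19) and Tnfrsf23 (1.02 ± 0.19). Tnfrsf9, the receptor of the Tnfsf9 product, was at 59.0 CPM at rest, 95.0 CPM after LPS and 189.8 CPM with defactinib, and its log2 fold change with defactinib of 1.00 ± 0.18 (adjusted p = 2.65e-04) was just under the fold threshold. The median over the receptors was -0.44 with defactinib in WT, beside 0.09 over all genes. In IRF5 KO BMDMs, 0 of the 15 receptors were called with defactinib against all 3 DMSO libraries, where 0.16% of all genes were called higher and 0.76% lower. At an unadjusted p below 0.05, 3 receptors were higher and 1 lower, and DESeq2 called 1 lower. Against replicate 3 alone 6 were called lower, where 19.2% of genes were called in either direction, and without it Tnfrsf1b was called higher, where 1.45% were.

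Genes that act on TNF at its mRNA, at its release from the membrane or below its receptors were described in the same way, and their counts in WT stand beside 11.6% of all genes higher and 9.71% lower with LPS, and 10.4% higher and 18.6% lower with defactinib. Of 9 shedding and cleavage genes, LPS raised 3 in WT and defactinib lowered 4. Furin, a proprotein convertase, was at 242 CPM at rest, 652 CPM after LPS and 70.2 CPM with defactinib (1.43 ± 0.22 and -3.22 ± 0.24), whereas Adam17, which encodes the main TNF sheddase, was at 211, 297 and 272 CPM and not called. Sppl2a, an intramembrane protease, was at 312, 423 and 306 CPM and not called either.

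Of 12 regulators of AU-rich mRNAs, LPS raised 2 and lowered 2 in WT, and defactinib raised 1 and lowered 5; all but the last of these counts are near the shares of all genes. Zfp36, which encodes tristetraprolin, a protein that binds the Tnf AU-rich element and promotes its decay, was the one raised, from 72.1 to 305 CPM on average (2.08 ± 0.46, adjusted p = 0.0015). Mapkapk2, which encodes a kinase of tristetraprolin, went from 307 CPM at rest to 815 CPM after LPS and 384 CPM with defactinib (1.41 ± 0.09 and -1.09 ± 0.08). Zfp36l1 fell with LPS (-1.74 ± 0.15) and was at 46.4 and 47.4 CPM with DMSO and defactinib. In IRF5 KO BMDMs, Zfp36 rose with LPS itself (2.61 ± 0.47), to 428 CPM on average with DMSO and 532 CPM with defactinib, and this rise was called without replicate 3 of the DMSO group and not with replicate 3 alone.

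Of 14 genes of the receptor signalling complexes, LPS raised 5 and lowered 1 in WT, and defactinib raised 0 and lowered 7. Cflar, which encodes the caspase 8 inhibitor c-FLIP, was at 128.5 CPM at rest, 1330.2 CPM after LPS and 433 CPM with defactinib (3.37 ± 0.24 and -1.62 ± 0.22). Traf1 followed the same order (2.37 ± 0.29 and -1.64 ± 0.28). Tnfaip3, which encodes the feedback inhibitor A20, rose with LPS (3.76 ± 0.56) and was at 973 CPM with DMSO and 1320.2 CPM with defactinib (0.44 ± 0.50, adjusted p = 0.467). In IRF5 KO BMDMs, defactinib lowered 1 gene of this list, Map3k14 (-2.29 ± 0.58, adjusted p = 0.0474), where 0.76% of all genes were called lower and 0.16% higher. Without replicate 3 of the DMSO group 0 genes of this list were called, where 1.45% of genes were in either direction, and with replicate 3 alone 4 were lower and 1, Tnfaip3, higher, where 19.2% were.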

How the data were processed

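Paired-end RNA-seq of the 18 libraries was used. Per the file headers and methods, the authors aligned reads with STAR to mm10 and counted uniquely mapped pairs per gene with featureCounts 1.6.3; the deposited values are raw counts without normalization. Of 50600 gene IDs, 24142 had no count, and depth was 39282181 to 61949143 pairs per library. Counts were fitted with edgeR 4.0.16 in R 4.3.3 (TMM scaling, filterByExpr, 1 mean per group, robust quasi-likelihood F test, two-sided, Benjamini-Hochberg adjustment over 15663 genes). Called genes had an adjusted p below 0.05 and changed more than 2-fold. The fit was tested on simulated data. Alternatives were DESeq2 1.42.0, other scaling, no filter, no fold threshold, a replicate block, only the groups compared and each library left out. DESeq2 with its outlier filter off was chosen after seeing the data. The members and lists were chosen with earlier results of these data known. Named genes were the 10 members, the 3 most abundant tested genes of each list, and each further ligand or receptor called with LPS or defactinib in WT; a list's sole called gene could be added. PCR duplicates were not marked by molecular identifiers, so limits for a count of 0 cover counting error only.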

Additional observations from a re-analysis of the deposited data

Results flagged for a closer look

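A response that differed between genotypes, by the interaction term of the edgeR fit, was found for 3 of the 10 ligands with LPS and for 4 with defactinib. Of all genes tested, 9.83% were called for LPS and 22.8% for defactinib, in either direction. For LPS, the difference of log2 fold changes (WT minus IRF5 KO) was 2.17 for Tnfsf4, 4.22 for Tnfsf10 and 2.87 for Tnfsf14. For defactinib it was -2.31 for Tnf, -2.29 for Tnfsf4, -3.31 for Tnfsf14 and -4.76 for Tnfsf15. All 7 rest on the IRF5 KO LPS DMSO group, in which replicate 3 stood apart; 6 of them were called without replicate 3 and with replicate 3 alone, and the exception was Tnfsf10, with an adjusted p of 1.34e-05 without replicate 3 and 0.0609 with it alone.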

How the results depend on the processing

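The counts of ligands called with LPS in WT, with defactinib in WT and between the genotypes after LPS with DMSO or with defactinib stayed within 1.5 times under each alternative run. With LPS in IRF5 KO the count was 1 in place of 4 with only the groups compared. With defactinib in IRF5 KO (1 call) it was 0 with no filter, with the replicate block and with only the groups compared, 6 with replicate 3 of the IRF5 KO LPS DMSO group alone, and 0 to 2 with a library left out. Between unstimulated genotypes (2 calls) it was 4 with only the groups compared, with no fold change threshold, with DESeq2 with its outlier filter off and with replicate 3 alone, and 2 to 4 with a library left out. For the difference of the LPS response (3 calls), leaving out a library gave 2 to 6. Over 45 pairs of same-numbered libraries the median correlation of deviations from the group means was 0.0046, above 0.1 in 4. Most pairs thus showed no pairing by replicate number, but whether same-numbered libraries share a mouse is not known. The replicate block moved no other count by over 1.5 times. Directions changed with the IRF5 KO LPS DMSO libraries. With replicate 3 alone, Tnfsf9 was at 0.15 between the stimulated genotypes and at 1.63 and -2.40 in the differences of the LPS and defactinib responses. Without replicate 3, Tnfsf10 was at -2.80 with LPS in IRF5 KO (-2.80 to 1.36 over all libraries left out), Tnfsf14 at 1.01 between the stimulated genotypes (-0.49 to 1.01) and Tnfsf15 at 1.35 with defactinib in IRF5 KO (-0.92 to 1.35). The cause was not tested. DESeq2 gave Tnfsf8 and Tnfsf15 no adjusted p because of its outlier filter. Over the single ligands, 2245 alternative values kept direction and call, 55 gained and 46 lost a call, 58 uncalled values changed sign, and 24 of 60 group means moved by over 1 SD with library size alone. Depth limits Tnfsf10 and Tnfsf14 most, at 0 to 39 counts per library with defactinib in WT.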
